A study of Mus musculus with 17 samples.

Results

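The regions described here are the accessible regions of mouse B-lineage cells that lie near genes of glycosylation enzymes. They were taken from a table of 66177 ATAC-seq regions as all rows whose nearest gene start belonged to a gene named Mgat, B4gal, B3gal, B3gnt, St3gal, St6gal, St8sia, Galnt, Fut, Alg, Man1 or Man2 and lay at most 50 kb away. The rule used gene names and distances and no measured value, although it was set with earlier results of these data known. It gave 404 regions of 87 genes, 0.6105% of the table, of which 91 lay within 1000 bp of a gene start (called promoter regions here) and 313 farther away (distal regions). St6gal1 had 24 regions, B3gnt2 22 and B4galt5 18, while 25 genes had 1 region each. Regions of 1 gene share a locus and are not independent of each other. All 404 regions exceeded 3 reads in at least 1 library, and 229 did so in every library. The gene assignment is by distance alone, and 37 of the regions overlapped a transcript of another gene.

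Glycosylation enzymes build the sugar chains of secreted and cell surface proteins and of glycolipids. The Alg enzymes assemble the lipid-linked precursor of N-glycans in the endoplasmic reticulum, mannosidases trim it after its transfer to protein, and Mgat enzymes start the branches of the trimmed chain in the Golgi apparatus. Galactose, fucose and sialic acid are then added by the B4gal, Fut, St3gal and St6gal enzymes, B3gnt enzymes extend the chains, and Galnt enzymes start the O-glycans of mucin type. Plasma cells secrete antibody, an N-glycosylated protein whose core fucose, galactose and sialic acid alter its binding to Fc receptors, and naive B cells carry sialylated ligands of the inhibitory receptor CD22.

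ATAC-seq, in which a transposase inserts sequencing adapters into open chromatin, was applied to 3 cell types from mice aged 8 to 12 weeks that were either Dnmt3-sufficient (C) or Dnmt3-deficient (KO). Naive B cells (nB, B220+ GL7- Fas-) came from lymph nodes of unimmunized male mice, with 3 C and 2 KO libraries of 1 mouse each. Germinal center B cells (GCB, B220+ GL7+ Fas+ and binding phycoerythrin, PE) came from lymph nodes 30 days after immunization. The immunization was with PE emulsified in complete Freund's adjuvant. There were 2 C and 4 KO GCB libraries, each a pool of 2 mice of 1 sex, named F or M. Bone marrow plasma cells (BMPC, CD138+) came from immunized female mice at the same day, with 3 C and 2 KO libraries of 1 mouse each. Both genotypes carried floxed Dnmt3a and Dnmt3b alleles, the de novo DNA methyltransferases (Dnmt3a fl/fl Dnmt3b fl/fl). The KO mice also carried a Cre recombinase that acts in the B lineage from early stages on, which the C mice lacked, so that the deletion and the presence of Cre cannot be told apart. Cell type, tissue, immunization and, between nB and BMPC, sex changed together and cannot be told apart. The p-values measure the spread between these libraries.

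Accessibility is given as RPPM, the reads of a region per 1000000 reads in all regions of that library. A region was called when limma, fitted on log2(RPPM + 1) over all 66177 regions and 6 groups, gave an adjusted p no higher than 0.01 together with a log2 fold change of 1 or more in size. Reads in regions ranged from 5357687 to 8232313 in BMPC, from 4104875 to 6079018 in nB and from 907959 to 2280954 in GCB libraries, so that 3 reads amounted to between 0.364 and 3.30 RPPM and values in GCB were the least precise. GCB libraries also had 7.43% to 10.1% of their reads on mitochondrial DNA, against 2.56% to 4.59% in the others. Summed promoter accessibility of 6 naive B cell markers was 220 to 259 RPPM in nB, 99.1 to 141 in GCB and 59.9 to 71.3 in BMPC. Germinal center markers (5 of 6 with a region) summed to 181 to 220 in GCB, 165 to 184 in nB and 145 to 161 in BMPC, and plasma cell markers (5 of 6, the defining gene Sdc1 having no promoter region) to 326 to 367 in BMPC, 280 to 307 in nB and 182 to 240 in GCB. Most markers of other cells had no promoter region in the table, which held 1 of 6 for T cells, 2 of 7 for myeloid cells (Csf1r, Csf3r, Elane, Lyz2 and Mpo had none) and 2 of 4 for erythroid cells (Gata1 and Hbb-b1 had none). The T cell marker Lck was at 33.6 to 45.6 RPPM in nB and BMPC and 19.6 to 31.9 in GCB. The myeloid sum was 17.7 to 22.9 in BMPC, 11.5 to 15.6 in nB and 7.69 to 16.7 in GCB, and the erythroid sum 63.9 to 74.7 in BMPC, 42.9 to 60.5 in nB and 34.1 to 42.2 in GCB. The closest erythroid regions did not overlap a start and lay 776 bp (Klf1) and 723 bp (Epor) from it. The part of other cells in the differences between BMPC and the other groups was not tested. A lower value can come from fewer cells with an open region or from less opening per cell, and the 2 cannot be told apart here.

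The sequences of the central 300 bp of 5 distal regions are shown because these regions, 1 per gene and outside exons, were among those with the largest called changes between cell types. A larger decrease, near Galnt1, is described by its values only. They are from mm9, plus strand, and capitals mark matches on either strand to 3 short motifs of B-lineage transcription factors, namely CAGCTG (bound by E2A), GGAAGT (PU.1) and GAAAC (the core of IRF sites). No match overlapped one to another motif.
Galnt2, chr8:126790952-126791251, opened in BMPC: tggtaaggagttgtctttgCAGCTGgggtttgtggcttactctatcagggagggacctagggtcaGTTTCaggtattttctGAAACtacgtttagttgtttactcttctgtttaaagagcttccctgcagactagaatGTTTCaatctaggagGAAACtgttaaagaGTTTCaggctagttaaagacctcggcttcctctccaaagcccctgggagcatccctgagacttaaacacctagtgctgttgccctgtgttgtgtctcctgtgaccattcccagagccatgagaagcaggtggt
Man1b1, chr2:25193805-25194104, opened in BMPC: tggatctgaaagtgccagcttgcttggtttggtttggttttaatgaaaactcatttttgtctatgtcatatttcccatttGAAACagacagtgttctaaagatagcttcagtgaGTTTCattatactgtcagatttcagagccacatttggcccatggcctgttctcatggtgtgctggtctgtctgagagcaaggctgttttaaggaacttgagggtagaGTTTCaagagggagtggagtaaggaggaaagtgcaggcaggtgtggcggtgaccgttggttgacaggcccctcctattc
St6gal1, chr16:23296073-23296372, opened in BMPC: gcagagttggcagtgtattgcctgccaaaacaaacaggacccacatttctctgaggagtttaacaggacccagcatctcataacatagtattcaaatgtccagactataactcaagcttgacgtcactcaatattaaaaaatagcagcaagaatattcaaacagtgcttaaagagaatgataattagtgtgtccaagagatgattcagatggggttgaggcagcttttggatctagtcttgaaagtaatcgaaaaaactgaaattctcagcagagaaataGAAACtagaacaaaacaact
B3gnt7, chr1:88150058-88150357, closed in BMPC: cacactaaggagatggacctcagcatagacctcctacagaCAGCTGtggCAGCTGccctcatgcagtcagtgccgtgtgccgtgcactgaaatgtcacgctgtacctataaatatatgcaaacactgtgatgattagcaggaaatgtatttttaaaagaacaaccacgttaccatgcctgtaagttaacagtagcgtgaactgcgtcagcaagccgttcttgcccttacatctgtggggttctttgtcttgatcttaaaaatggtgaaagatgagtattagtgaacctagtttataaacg
B4galt5, chr2:167207124-167207423, closed in BMPC: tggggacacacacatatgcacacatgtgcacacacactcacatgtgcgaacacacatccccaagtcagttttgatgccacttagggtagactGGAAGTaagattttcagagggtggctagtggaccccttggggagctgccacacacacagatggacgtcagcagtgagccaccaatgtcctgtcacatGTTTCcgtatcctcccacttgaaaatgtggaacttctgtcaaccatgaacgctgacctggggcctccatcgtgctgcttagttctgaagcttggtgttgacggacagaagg
The Galnt2, Man1b1 and St6gal1 windows lie inside their own genes, the B3gnt7 window inside Armc9, and the B4galt5 window in no annotated gene. The Galnt2 window held 5 matches to GAAAC and 1 to CAGCTG, the Man1b1 window 3 matches to GAAAC, and the B3gnt7 window 2 to CAGCTG. CpG dinucleotides, the targets of Dnmt3a and Dnmt3b, numbered 2 in each of the Galnt2, Man1b1 and St6gal1 windows, 8 in the B3gnt7 window and 6 in the B4galt5 window.

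The largest number of changes was between C nB and C BMPC, the comparison that asks which regions differ between the naive and the antibody-secreting state. In C BMPC 100 of the 404 regions rose and 71 fell, or 24.8% and 17.6%, against 18% and 20.1% of all regions. The regions that rose belonged to 39 of the 87 genes and those that fell to 28, with 16 genes in both sets. The median log2 fold change was 0.12 over the 404 regions and 0.03 over all regions. Most calls were distal. Among the 313 distal regions 90 rose and 67 fell (28.8% and 21.4%, against 20.0% and 24.2% of all distal regions), while among the 91 promoter regions 10 rose and 4 fell (11% and 4.40%, against 11.2% and 6.22% of all promoter regions).

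**Figure D1:**
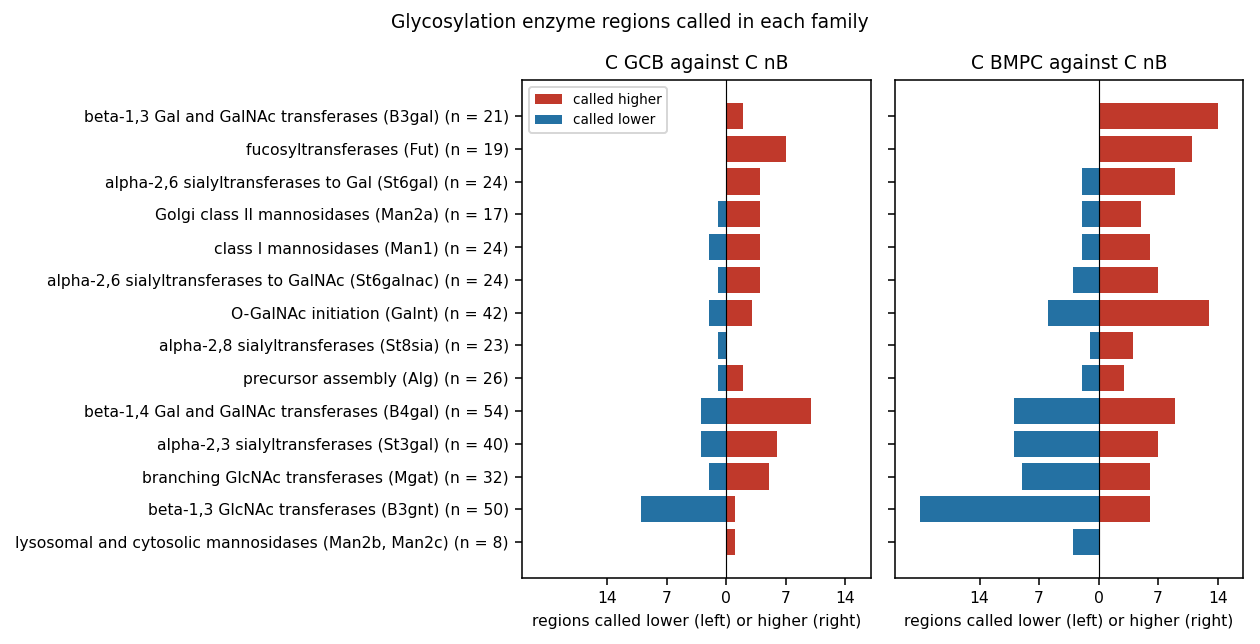
Number of regions called higher (right of 0) and lower (left of 0) in each enzyme family in C GCB (left panel) and C BMPC (right panel), both against C nB, with the number of regions of each family beside its name. The Fut and B3gal families have bars only on the right in BMPC (11 and 14 regions), whereas the B3gnt family has 21 regions on the left and 6 on the right. Regions of 1 gene share a locus, and of the 14 B3gal regions 9 belong to B3galt5 and 5 to B3galnt1.

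The families differed in the direction of their calls. Of 19 regions of 7 fucosyltransferase (Fut) genes 11 rose and 0 fell in C BMPC against C nB (median log2 fold change 1.88), and of 21 regions of 5 genes that add galactose or N-acetylgalactosamine in beta-1,3 linkage (B3gal) 14 rose and 0 fell (median 1.44). At an unadjusted limma p under 0.05 each family had 1 region lower, edgeR quasi-likelihood and DESeq2 called 0 lower in both, and the edgeR likelihood ratio test 1 in each. The B3gnt family, which adds N-acetylglucosamine to extend chains, went mainly the other way, with 21 of its 50 regions lower and 6 higher (median -0.58). Of the 14 B3gal regions that rose, 9 belonged to B3galt5 and 5 to B3galnt1. Fut8 had 5 and Fut1 3 of the 11 Fut regions that rose. B3gnt5 had 8, B3gnt7 6 and B3gnt2 5 of the 21 B3gnt regions that fell. Mannosidases of class I (Man1) had 6 of 24 regions higher and 2 lower, Golgi class II mannosidases (Man2a) 5 of 17 higher and 2 lower, and the lysosomal and cytosolic Man2b and Man2c genes 0 of 8 higher and 3 lower. The remaining large families were mixed, with 13 higher and 6 lower of 42 Galnt regions, 7 and 10 of 40 St3gal regions, 9 and 10 of 54 B4gal regions and 6 and 9 of 32 Mgat regions. Galnt2 had 10 of the 13 Galnt regions that rose, and Mgat5 8 of the 9 Mgat regions that fell. Of the 26 Alg regions 3 were higher and 2 lower (median -0.05). The medians of the Fut, B3gal and B3gnt families kept their sign under TMM scaling and quantile normalization.

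Galnt2, which transfers N-acetylgalactosamine to serine and threonine to begin O-glycans, had 10 of its 12 regions called higher in C BMPC and none lower. At the region whose sequence is shown, 35398 bp downstream of the start, C nB libraries had 1.22, 1.51 and 0.558 RPPM, C GCB libraries 1.32 and 2.81, and C BMPC libraries 44.0, 60.0 and 53.1. KO BMPC libraries had 54.7 and 62.1 RPPM there. The BMPC libraries of both genotypes lay far above every other library, and C BMPC exceeded C nB by a log2 fold change of 4.69 (SE 0.31, limma adjusted p = 7.1e-13). The other called Galnt2 regions ran from 1113 bp upstream to 47873 bp downstream with log2 fold changes of 1.33 to 3.39, whereas the promoter region itself was not called (34.8, 40.7 and 38.9 RPPM in C nB and 45.9, 44.9 and 42.0 in C BMPC).

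Man1b1 encodes the mannosidase of the endoplasmic reticulum that trims N-glycans of folding and misfolded proteins, and both of its regions rose. The region 5249 bp downstream of the start had 1.95, 2.07 and 1.68 RPPM in C nB, 19.4 and 18.7 in C GCB, and 62.3, 64.8 and 67.9 in C BMPC. The 3 cell types were separated in every library, with a 10.0-fold higher mean in C GCB than C nB and a 34.2-fold higher mean in C BMPC than C nB. Non-overlapping libraries were part of the rule for named regions, so such separation is no added evidence. Libraries did not overlap, in either direction, in 259 of the 404 regions between C GCB and C nB. Between C BMPC and C nB the number was 308, and the same shares over all regions were not counted. On the log2 scale the change from C nB was 2.79 (SE 0.22, limma adjusted p = 8.5e-11) in C GCB and 4.51 (SE 0.20, adjusted p = 1.9e-16) in C BMPC.

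Fut8, the enzyme of the core fucose of N-glycans, had 5 of 9 regions higher in C BMPC and 4 higher in C GCB, and none lower. The region 1810 bp upstream of the start had 0.244, 0.565 and 0.930 RPPM in C nB, 8.36 and 7.96 in C GCB and 18.3, 21.7 and 16.7 in C BMPC. It too was separated in every library, which, as said for Man1b1, is no added evidence. The log2 fold change over C nB was 2.56 (SE 0.32, limma adjusted p = 3.7e-07) in C GCB and 3.67 (SE 0.29, adjusted p = 1.8e-11) in C BMPC. The other 4 Fut8 regions that rose in BMPC lay 20998 to 44445 bp upstream, and the promoter region stayed between 70.3 and 90.3 RPPM in all C libraries and was not called. Fut1, which makes the fucosylated H antigen, had 3 regions, all called higher in C BMPC. The Fut1 region 617 bp upstream had at most 3 reads in each C nB library and 1.76 and 1.41 RPPM in C GCB, and rose to 18.9, 15.5 and 14.9 RPPM in C BMPC.

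B3galt5, which adds galactose to form type 1 chains, had all 9 of its regions called higher in C BMPC, with log2 fold changes of 1.02 to 3.27. At the region 7303 bp upstream C nB libraries had 1.71, 1.13 and 0.744 RPPM, C GCB libraries 4.40 and 0.937 and C BMPC libraries 19.0, 23.5 and 17.4. The C GCB values overlapped those of C nB, and C BMPC stood above both (log2 fold change over C nB 3.27, SE 0.33, limma adjusted p = 2.3e-09). B3galnt1, the globoside synthase, had 5 of 7 regions higher and none lower. Mgat3, whose product adds the bisecting N-acetylglucosamine to N-glycans, had 2 regions and both rose. The distal Mgat3 region, 18192 bp downstream, went from 1.22, 1.32 and 0.558 RPPM in C nB to 20.3, 33.4 and 22.3 in C BMPC (log2 fold change 3.68, SE 0.30, limma adjusted p = 2.6e-11). Its promoter region went from 0.975, 1.13 and 0.930 to 5.46, 6.39 and 3.43 RPPM, and this call was lost with a pseudocount of 0.1 (adjusted p = 0.0263) or 5 (log2 fold change 0.736).

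**Figure D2:**
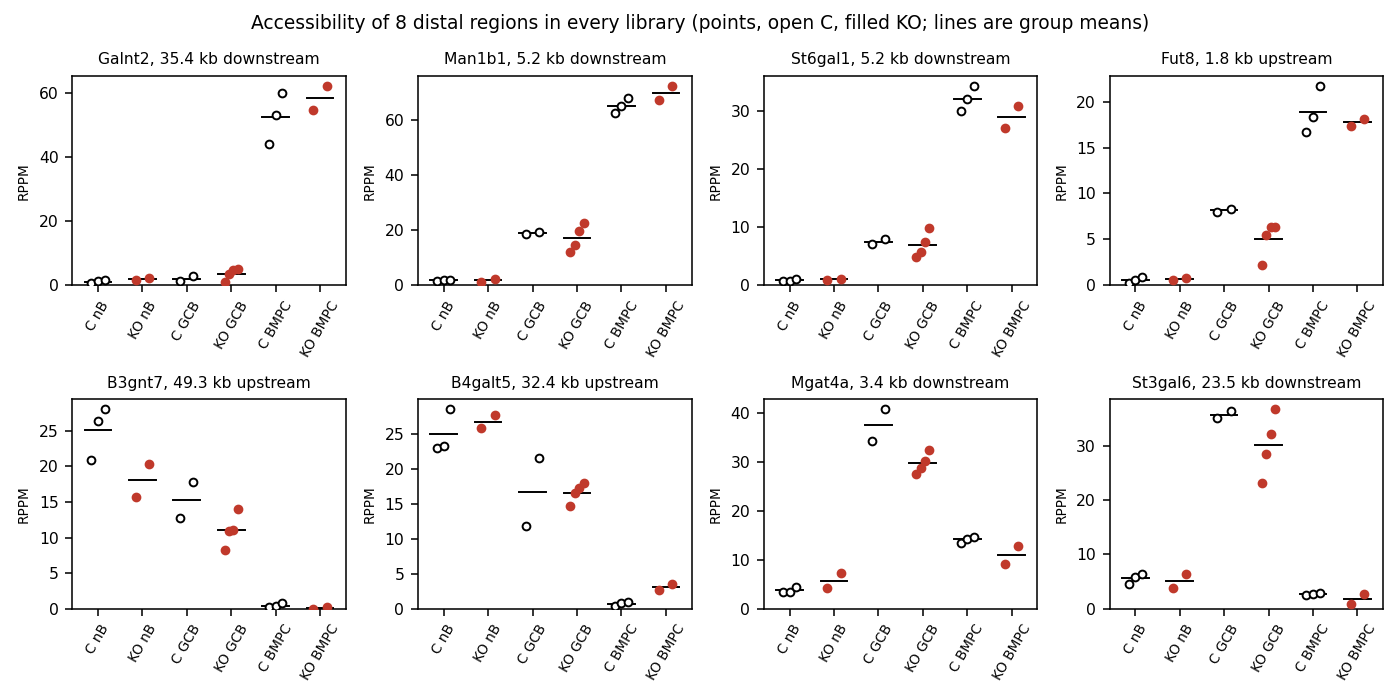
RPPM of 8 distal regions in each of the 16 libraries (points, open for C and filled for KO, on linear axes from 0), by group, with lines at group means. Galnt2 reaches 44.0 to 62.1 RPPM in BMPC libraries and stays at or below 5.09 in all others, B3gnt7 and B4galt5 are lowest in BMPC libraries (at most 0.780 and 3.55 RPPM), and Mgat4a and St3gal6 are highest in GCB libraries.

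St6gal1 encodes the enzyme that caps galactose of N-glycans with sialic acid in alpha-2,6 linkage, the ligand of CD22, and had the most regions of any of the genes. Of its 24 regions 9 rose and 2 fell in C BMPC. All 9 that rose lay downstream of the start, from 4160 to 35046 bp, and the 2 that fell lay 20829 and 27989 bp upstream. At the region 5192 bp downstream C nB libraries had 0.731, 0.754 and 1.12 RPPM, C GCB libraries 7.04 and 7.96, and C BMPC libraries 29.9, 31.9 and 34.3. Every C GCB library lay above every C nB library and below every C BMPC library, and the log2 fold change over C nB was 2.19 (SE 0.26, limma adjusted p = 1.8e-07) in C GCB and 4.15 (SE 0.24, adjusted p = 3.1e-14) in C BMPC. Non-overlapping libraries were, as said for Man1b1, part of the rule for named regions. The St6gal1 promoter region, with 41.2, 35.2 and 39.5 RPPM in C nB, 33.0 and 30.4 in C GCB and 36.1, 34.5 and 35.0 in C BMPC, was not called in any of these comparisons.

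**Figure D3:**
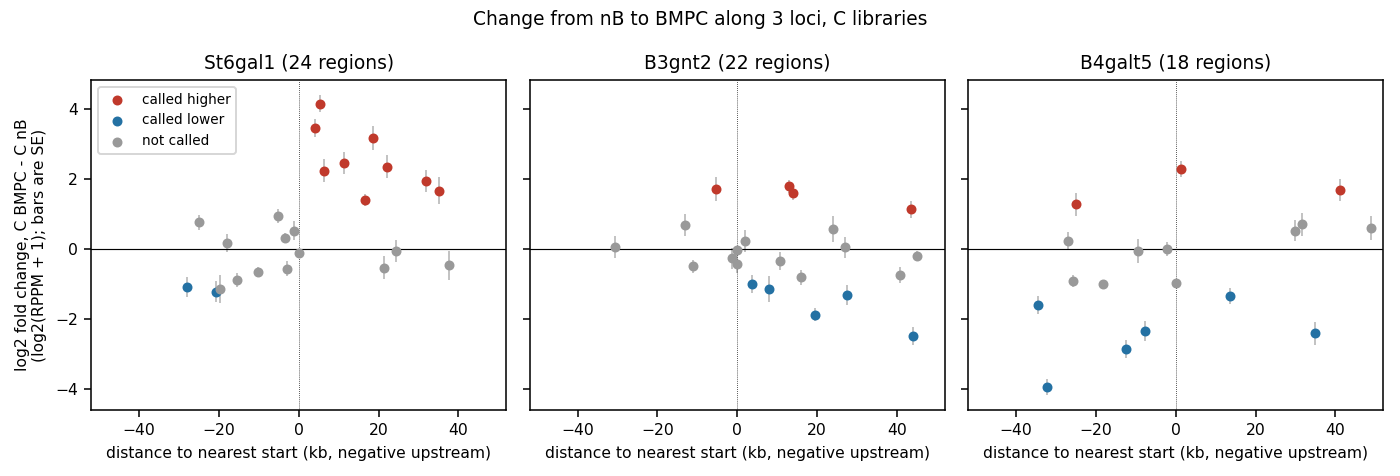
Log2 fold change between C BMPC and C nB (vertical axis, log2(RPPM + 1) scale, bars are SE) of each region of St6gal1, B3gnt2 and B4galt5 against its distance from the gene start in kb, with regions called higher in red, called lower in blue and not called in grey. The 9 St6gal1 regions called higher lie downstream of the start, while B3gnt2 has 4 regions called higher and 5 lower and B4galt5 3 higher and 6 lower.

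Of the 71 regions that fell in C BMPC, 21 belonged to the B3gnt family, 10 each to B4gal and St3gal and 9 to Mgat, 8 of these at Mgat5. B3gnt5, which starts the lacto-series of glycolipids, had all 8 regions lower in C BMPC than C nB, with log2 fold changes of -3.66 to -1.31. Its region 7649 bp downstream had 18.8, 13.9 and 16.8 RPPM in C nB, 3.08 and 3.75 in C GCB, and 0.910, 0.365 and 0 in C BMPC (log2 fold change of C BMPC -3.66, SE 0.38, limma adjusted p = 4.6e-09). B3gnt7, a poly-N-acetyllactosamine synthase, had 6 of 8 regions lower and 1 higher. The B3gnt7 region whose sequence is shown, 49294 bp upstream and within Armc9, had 28.0, 20.9 and 26.4 RPPM in C nB, 12.8 and 17.8 in C GCB, and 0.780, 0.182 and 0.311 in C BMPC. The signal in BMPC was near the 3-read level, and the change was -4.21 on the log2 scale (SE 0.25, limma adjusted p = 6.0e-14). The promoter regions of both genes fell as well, by 2.09 (SE 0.30, adjusted p = 9.9e-07) for B3gnt5 and 2.01 (SE 0.29, adjusted p = 8.8e-07) for B3gnt7 on the log2 scale in limma.

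Mgat5, which adds the branch that carries poly-N-acetyllactosamine on N-glycans, had 8 of 12 regions lower in C BMPC and none higher. Its region 25446 bp downstream had 11.2, 10.2 and 10.6 RPPM in C nB, 5.72 and 7.50 in C GCB and at most 3 reads in each C BMPC library (log2 fold change of C BMPC -3.23, SE 0.27, limma adjusted p = 5.3e-11). Another Mgat5 region, 34900 bp downstream, followed a different course, with 8.77, 9.98 and 9.12 RPPM in C nB, 26.4 and 28.1 in C GCB and 1.82, 1.09 and 2.34 in C BMPC. It was called higher in C GCB (log2 fold change 1.46, SE 0.24, limma adjusted p = 1.4e-05) and lower in C BMPC (-1.93, SE 0.21, adjusted p = 9.5e-09). The Mgat5 promoter regions, 3 within 1000 bp, were not called in C BMPC.

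The largest decrease of all was at a region 19206 bp upstream of Galnt1, another enzyme that starts O-glycans, with 42.1, 31.3 and 30.7 RPPM in C nB, 23.8 and 17.8 in C GCB and at most 3 reads in each C BMPC library. The change in C BMPC was -4.83 on the log2 scale (SE 0.20, limma adjusted p = 6.8e-17). Galnt1 and Galnt2, which act at the same step, thus had their largest changes in opposite directions. The B4galt5 region shown above, 32359 bp upstream of this lactosylceramide synthase gene, had 28.5, 23.0 and 23.3 RPPM in C nB, 11.9 and 21.6 in C GCB and 0.910, 0.365 and 0.778 in C BMPC (log2 fold change of C BMPC -3.95, SE 0.22, limma adjusted p = 1.8e-14). A B4galt5 region 1346 bp downstream went the other way, from 7.07, 5.28 and 6.14 RPPM in C nB to 32.0, 35.8 and 33.5 in C BMPC (log2 fold change 2.29, SE 0.22, adjusted p = 1.2e-09).

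In C GCB against C nB, which compares the antigen-activated with the naive state, 53 of the 404 regions rose and 26 fell (13.1% and 6.44%, against 14.2% and 8.47% of all regions). Both shares were below those of the table. Under quantile normalization the calls were 40 higher and 32 lower, against 11.2% and 10.7% of all regions. B4galt5 had 5 regions higher and 2 lower, St6gal1 4 higher and none lower, Fut8 4 higher and none lower, and B3gnt5 4 lower and none higher. The Fut family had 7 regions higher and 0 lower. Fut1 had 2 of these 7, and neither was called under quantile normalization.

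The largest increase in C GCB was at a region 3430 bp downstream of Mgat4a, which adds another N-glycan branch. C nB libraries had 3.41, 4.52 and 3.35 RPPM there, C GCB libraries 40.9 and 34.2 and C BMPC libraries 14.7, 13.5 and 14.3 (log2 fold change of C GCB over C nB 3.02, SE 0.22, limma adjusted p = 1.7e-11). The Mgat4a promoter region ran opposite, with 38.2, 45.8 and 40.0 RPPM in C nB, 14.1 and 20.6 in C GCB and 47.0, 48.4 and 51.7 in C BMPC. Its decrease in C GCB was called (log2 fold change -1.23, SE 0.20, limma adjusted p = 1.2e-05) and missed the fold limit without C GCB library F2 (-0.966).

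Other regions had their highest values in GCB among the C groups. A B4galt5 region 27008 bp upstream had 3.65, 2.45 and 2.61 RPPM in C nB, 23.3 and 28.6 in C GCB and 3.38, 3.10 and 4.20 in C BMPC (log2 fold change of C GCB over C nB 2.79, SE 0.27, limma adjusted p = 5.2e-09). St3gal6, which caps galactose with sialic acid in alpha-2,3 linkage, had a region 23482 bp downstream with 5.85, 6.41 and 4.47 RPPM in C nB, 36.5 and 35.1 in C GCB and 2.73, 2.92 and 2.49 in C BMPC (log2 fold change of C GCB over C nB 2.50, SE 0.28, adjusted p = 3.9e-08). Alg8, which adds a glucose to the lipid-linked precursor, had one 11671 bp downstream with 22 and 15.0 RPPM in C GCB against 1.32 to 2.42 in C nB and 2.47 to 2.80 in C BMPC. In each of these the C GCB libraries lay above all other C libraries. Separation from C nB was part of the rule for named regions, and 259 of the 404 regions had it in either direction. The same share over all regions was not counted, so this separation is no added evidence.

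Decreases in C GCB were fewer, and several lost their call when 1 library was left out. Leaving out 1 of the 2 C GCB libraries leaves 1 in that group. Man2a1, the Golgi mannosidase that acts before complex branches are added, had a region 21278 bp upstream with 33.9, 29.0 and 34.4 RPPM in C nB, 5.28 and 7.50 in C GCB and 2.73, 3.10 and 5.61 in C BMPC (log2 fold change of C GCB -2.19, SE 0.28, limma adjusted p = 4.6e-07). The promoter region of Galnt1 fell from 89.2, 95.3 and 85.4 to 22 and 32.3 RPPM (-1.72, SE 0.17, adjusted p = 8.2e-09) and had 84.7, 75.7 and 80.0 RPPM in C BMPC. The promoter region of B3gnt8, an extender of N-glycan branches, fell from 25.8, 20.4 and 22 to 2.2 and 9.37 RPPM (-2.04, SE 0.31, adjusted p = 5.6e-06). The B3gnt5 region 7649 bp downstream was no longer called in C GCB without C GCB library F2 (limma adjusted p = 0.0113), nor the named St6galnac3 region without C GCB library M1 (0.183), nor the named Galnt10 region without C nB library 1 (0.0134) or C GCB library M1 (0.105). The named Alg14 region lost its call without C nB library 1 (limma adjusted p = 0.033), C nB library 2 (0.0242), C GCB library F2 (0.0193) or C GCB library M1 (0.0646).

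Between C BMPC and C GCB, 69 regions were higher in C BMPC and 73 lower (17.1% and 18.1%, against 11.3% and 19.1% of all regions). This comparison shares its C GCB libraries with the one above. Among the promoter regions of the core genes, those of Galnt1 (log2 fold change 1.55, SE 0.17), Mgat4a (1.47, SE 0.20) and Man2a2 (1.41, SE 0.19) were called higher and those of B3gnt7 (-1.81, SE 0.32) and B3gnt5 (-1.35, SE 0.34) lower. The B3gnt5 call was lost without C GCB library F2 (limma adjusted p = 0.027). Among the 37 genes whose promoter regions were to be named, Man1b1, Mgat2, St3gal4 and Galnt3 had no region within 1000 bp of the start.

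Genes that supply these enzymes with sugars and substrates, or act beside them, were examined at their promoters. Of 61 listed gene symbols of the oligosaccharyltransferase, the folding cycle, the dolichol steps, sugar nucleotides and other Golgi steps, 53 had a promoter region. Gcs1 and Ugcgl1, listed without a region, are older symbols of Mogs and Uggt1, which had one. Of the 53 regions 1 rose and 2 fell in C BMPC against C nB (11.2% and 6.22% of all promoter regions did). The one that rose was Gmppa, a regulator of GDP-mannose synthesis, from 11.7 ± 0.455 to 33.5 ± 2.24 RPPM (mean ± SD, n = 3 each), and those that fell were Gcnt1, which branches O-glycans, from 20.0 ± 1.49 to 4.92 ± 1.28, and Tusc3, an oligosaccharyltransferase subunit, from 73.1 ± 8.63 to 32.9 ± 3.96. In C GCB against C nB 0 rose and 3 fell, against 9.07% and 6.9% of all promoter regions. Those that fell were 3 of the 9 measured genes of dolichol steps, Dpagt1 (log2 fold change -1.32, SE 0.20), Mpdu1 (-1.10, SE 0.12) and Dpm3 (-1.01, SE 0.26). Between C BMPC and C GCB 6 were higher in C BMPC and 2 lower, against 11.2% and 7.15% of all promoter regions. The 6 were Krtcap2, Edem2, Dpagt1, Dolk, Gmppa and Gnptg, and the 2 were Tusc3 and Gcnt1. The median log2 fold change of the 53 regions was -0.21 in C GCB and 0.05 in C BMPC, both against C nB. It was -0.10 and 0.12 for the 91 promoter regions of the enzymes, and -0.17 and 0.11 for all promoter regions. The difference between these lists and the enzymes was not tested.

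The changes between cell types were measured again in the KO libraries, which share no library with the C comparisons. All groups were fitted together, however, and the spread of each region was estimated from libraries of both genotypes. The calls in C and KO are therefore not independent of each other. In KO BMPC against KO nB 101 regions rose and 62 fell (25.0% and 15.4%, against 18.4% and 16.9% of all regions). Of the regions that rose 87 were called in both genotypes, 87.0% of the C list and 86.1% of the KO list, and of those that fell 56, or 78.9% and 90.3%. All 100 regions called higher and all 71 called lower in C had the same sign in KO. In KO GCB against KO nB 59 rose and 24 fell (14.6% and 5.94%, against 18.4% and 7.84% of all regions, and 33 and 32 under quantile normalization, against 11.6% and 11.3%), of which 41 and 17 were shared with C. In KO BMPC against KO GCB 78 were higher and 67 lower (19.3% and 16.6%, against 12.1% and 19.9% of all regions), with 57 shared in each direction. No region of these enzyme genes was called in opposite directions in the 2 genotypes in any of these comparisons. Sharing between the genotypes was not counted over all regions of the table. Whether it is particular to the enzyme genes was therefore not tested. By family, KO BMPC had 10 Fut regions higher and 0 lower, 16 B3gal regions higher and 0 lower, and 7 B3gnt regions higher and 18 lower.

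**Figure D4:**
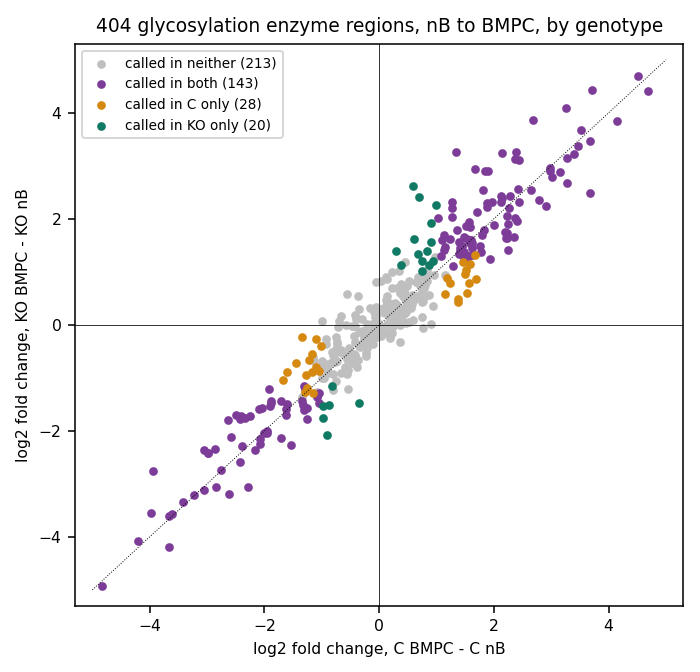
Log2 fold change from nB to BMPC of the 404 regions in C (horizontal axis) and KO libraries (vertical axis), coloured by the genotypes in which the region was called, with a dotted line at equal change. Points lie along the line, with 143 regions called in both genotypes, 28 in C alone, 20 in KO alone and 213 in neither.

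Differences between the genotypes within a cell type were few. In KO nB against C nB limma called 0 regions higher and 0 lower (0.00% and 0.00% of all regions), and 3 and 4 had an unadjusted p under 0.05. In KO GCB against C GCB it called 0 and 0 (0.0317% and 0.00% of all regions), with 25 higher and 12 lower at an unadjusted p under 0.05, and in KO BMPC against C BMPC 1 and 0 (0.0907% and 0.0136%), with 37 and 16. Count tests on the recovered reads with edgeR quasi-likelihood, edgeR likelihood ratio and DESeq2 called 0 of the 404 regions in nB (0.0106%, 0.0151% and 0.00151% of all regions) and 0 in GCB (0.00151%, 0.0181% and 0.00%). In BMPC they called 9, 12 and 6, or 2.23%, 2.97% and 1.49%, against 1.81%, 2.53% and 0.746% of all regions, so that the first 2 shares were near those of the table. The 9 of edgeR quasi-likelihood were 5 regions of B4galt5, 1 of Mgat4a and 1 of Galnt2, higher in KO, and 2 of Mgat3, lower in KO. The difference of the genotype effect between cell types was called by limma for 0 regions in each of the 3 pairs of cell types (0.00%, 0.00% and 0.00% of all regions), with 14 higher and 9 lower at an unadjusted p under 0.05 for GCB less nB, 15 and 7 for BMPC less nB and 27 and 13 for BMPC less GCB. For these edgeR quasi-likelihood called 0, 1 and 1 regions (0.00%, 0.0740% and 0.0287% of all regions), edgeR likelihood ratio 0, 1 and 1 (0.00604%, 0.267% and 0.113%), and DESeq2 0, 0 and 1 (0.00%, 0.0423% and 0.0287%). The promoter regions of Dnmt3a and Dnmt3b were not called between genotypes, and lie outside the deleted catalytic exons, so that they do not check the deletion.

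The 1 region called between genotypes was in an intron of B4galt5 (chr2:167160526-167161073, 13604 bp downstream of the start). C BMPC libraries had 3.25, 1.82 and 2.49 RPPM and KO BMPC libraries 7.90 and 7.47, a 3.04-fold higher mean (log2 fold change 1.32, SE 0.24, limma adjusted p = 0.00924). The KO BMPC values were close to those of nB libraries, which had 9.01, 7.35 and 7.26 RPPM in C and 9.87 and 8.46 in KO. GCB libraries were highest, with 25.5 and 19.2 RPPM in C and between 14.3 and 22.9 in KO. The adjusted p lay close to the limit of 0.01, and leaving out a library raised it above the limit in 12 of 16 cases, to between 0.0113 and 0.177. These were C nB 1 (0.0135), 2 (0.0159) and 3 (0.0165), KO nB 1 (0.0164) and 2 (0.0159), C GCB F2 (0.0115) and M1 (0.0114), KO GCB F3 (0.0113), C BMPC 2 (0.0683) and 3 (0.0386), and KO BMPC 1 (0.14) and 2 (0.177), in limma.

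Other B4galt5 regions leaned the same way. The distal region shown above had 0.910, 0.365 and 0.778 RPPM in C BMPC and 2.67 and 3.55 in KO BMPC (log2 fold change 1.29, SE 0.25, limma adjusted p = 0.0104, not called), and a region 48933 bp downstream 6.37, 1.82 and 2.18 against 16.8 and 13.6 (1.99, SE 0.38, adjusted p = 0.0109, not called). In both, the KO BMPC libraries lay above all C BMPC libraries. In BMPC 17 of the 18 B4galt5 regions had a higher mean log2 value in KO than in C (median log2 fold change 0.57, from -0.16 to 1.99), and in 15 of the 18 the libraries did not overlap, 14 with KO higher. Over all regions the libraries did not overlap in 33.9%, and in 20.0% with KO higher, and among the 404 regions in 160. In nB 8 of the 18 B4galt5 regions had a higher mean in KO and in GCB 6. The median over the 404 regions in BMPC was 0.05. The regions share a locus and libraries, and the direction over them was not tested.

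**Figure D5:**
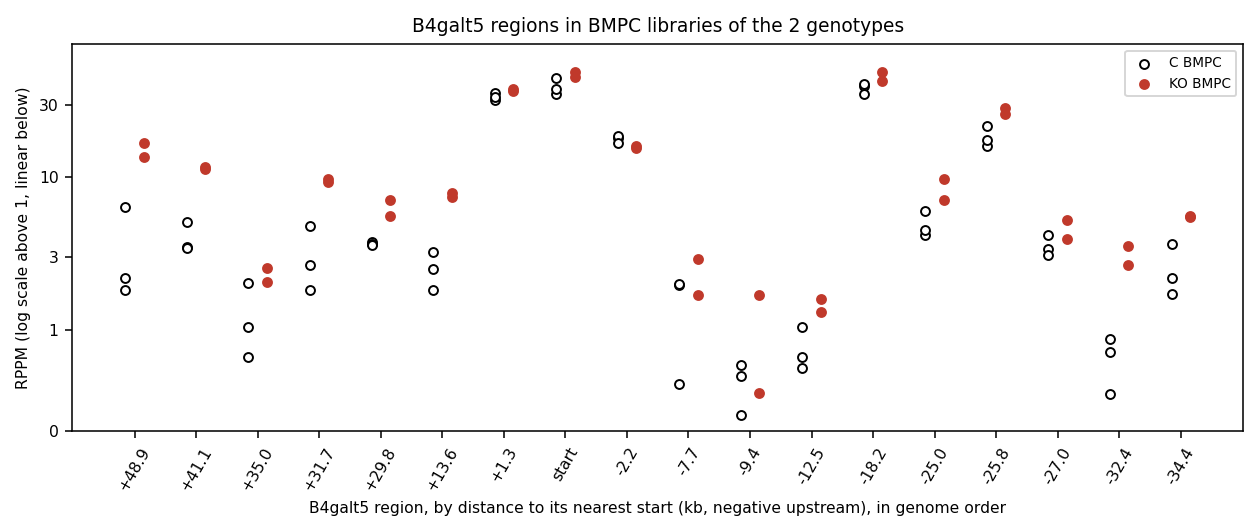
RPPM of the 18 B4galt5 regions in the 3 C BMPC (open) and 2 KO BMPC (filled) libraries, in genome order and labelled with the distance to the gene start in kb, on an axis that is logarithmic above 1 and linear below. KO points lie above all C points in 14 regions, among them the called region at 13604 bp (7.90 and 7.47 against 1.82 to 3.25 RPPM).

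The regions of Mgat3 had lower values in KO BMPC. The distal Mgat3 region had 20.3, 33.4 and 22.3 RPPM in C BMPC and 9.11 and 9.15 in KO BMPC, which limma did not call (log2 fold change -1.34, SE 0.33, adjusted p = 0.049) and edgeR quasi-likelihood did (adjusted p = 1.7e-06). Its promoter region had 5.46, 6.39 and 3.43 against 1.22 and 2.24 RPPM (-1.15, SE 0.40, limma adjusted p = 0.22). In GCB the smallest p was at a Galnt2 region 34243 bp downstream, with 3.08 and 9.84 RPPM in C GCB and 11, 19.1, 16.2 and 19.6 in KO GCB (log2 fold change 1.36, SE 0.27, limma adjusted p = 0.0312, not called). The C libraries of this Galnt2 region differed more from each other than from some KO libraries, and the region was called without C GCB library M1 (limma adjusted p = 0.00915) or without KO GCB library F1 (0.00993).

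The sequences were compared with those of the table by their CpG density and by short motifs, as a description with no test. The median CpG density of the central 300 bp was 8 per 100 bases in the promoter regions and 7.33 in all promoter regions, and 1.33 in the distal regions and in all distal regions. GAAAC was found in 72.2% of the 90 distal regions that rose in C BMPC and in 69.1% of all distal regions that rose, and CAGCTG in 26.7% and 27.5%. GGAAGT was found in 58.2% of the 67 distal regions that fell in C BMPC, against 47.5% of all distal regions that fell, and in 20.0% of those that rose, against 21.5%. In C GCB the shares of small sets lay farther from the table, with CAGCTG in 38.3% of the 47 distal regions that rose against 23.4% of all distal regions that rose, and GGAAGT in 66.7% of the 21 that fell against 46.7%. Over all 404 regions the shares were 52.7% for GAAAC, 22.3% for CAGCTG and 27.7% for GGAAGT, against 53.5%, 19.7% and 29.2% of all regions with sequence. The octamer ATGCAAAT was in 2.48% (3.79% of all regions), the XBP1 core GCCACGT in 1.73% (2.19%) and the endoplasmic reticulum stress element, CCAAT and CCACG 9 bases apart, in 0.248% (0.0258%), which is 1 region.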

How the data were processed

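ATAC-seq was performed on sorted nB, GCB and BMPC of C and KO mice, and 17 samples were labelled, of which 16 had a column in the table. The labels state that the remaining KO BMPC sample was removed for aberrant reads in peaks, and it was not analysed here. The authors mapped reads to mm9 with Bowtie (1.1.1 in the submitters' processing notes, another version in the methods), removed duplicates with Picard (1.127), called peaks per sample with MACS2 (2.1.0.20140616, q 0.01), took the union of all peaks and deposited RPPM, an RPM unit (reads of a region per 1000000 reads in all regions of that library, replicates not pooled). The deposited columns of the authors' own comparisons (log2 fold change, log CPM, likelihood ratio, p-value, FDR and significance) were not used.

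The main test was limma (3.58.1, R 4.3.3) on log2(RPPM + 1) with a mean-variance trend, 6 groups in 1 fit, two-sided, Benjamini-Hochberg adjusted over 66177 regions. The pseudocount understates changes of low regions. Whole reads were recovered for 100% of values within 0.01 read and tested with edgeR (4.0.16) and DESeq2 (1.42.0) as alternatives, which were planned as such together with pseudocounts of 0.1 and 5, TMM scaling, quantile normalization, a minimum mean of 1 RPPM, an adjusted p of 0.05, the compared groups only, a replicate block for GCB and leaving out each library. The limma fit was tested on simulated data for KO BMPC against C BMPC and for C GCB against C nB. The other steps were not tested in this way. The level of 3 reads covers counting error only.

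Members, role families and lists were chosen with earlier results of these data known. Named regions were, for each cell type comparison of C libraries, the 8 genes with the largest called increases and the 8 with the largest decreases whose libraries did not overlap, the called regions (or the 3 smallest p) between genotypes, the promoter regions of 37 core genes, and all regions of the 3 genes with the most regions. Galnt2, Fut8, B3galt5, B3gnt5, Mgat5 and other regions named beyond these were chosen after their values were seen, mostly for the number of their calls. Sequences were read from the mm9 genome (NCBIM37) and genes around them from its annotation. Distances are to the nearest start as deposited, negative upstream. A gene withheld from this text is not reported here.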

Additional observations from a re-analysis of the deposited data

Results flagged for a closer look

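In KO GCB, the one group with 4 to 10 libraries, the highest or lowest library stood apart from the other 3 by Dixon's criterion in 8 of 134 named regions. Chance flags about 1 in 20 such groups. Library F1, the shallowest with 907959 reads in regions, was apart in 5 of the 8. F1 was high at a B4galnt4 region 18074 bp upstream, with 7.71 RPPM against 3.07 to 3.50 in the others, and at the first of 3 B3gnt2 regions, with 7.71 against 3.18 to 3.51. It was low at the Galnt7 promoter region, with 38.55 RPPM against 50.28 to 52.61, at the second B3gnt2 region, with 3.304 against 11.4 to 12.09, and at a St6gal1 region with 15.42 against 19.58 to 20.17. Library M1 was high at the remaining B3gnt2 region, with 4.195 RPPM against 1.909 to 2.203. Library F3 was high at a St6gal1 region with 12.71 RPPM against 6.99 to 7.71, and low at the St6gal1 region 4160 bp downstream with 3.946 against 5.51 to 5.73. The lower depth of F1 makes 3 reads worth 3.30 RPPM there, and its part in these values was not tested.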

How the results depend on the processing

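Called regions numbered 79 in C GCB against C nB, 171 in C BMPC against C nB, 142 in C BMPC against C GCB, 83 in KO GCB against KO nB, 163 in KO BMPC against KO nB and 145 in KO BMPC against KO GCB. With a pseudocount of 5 they numbered 34, 93, 80, 28, 98 and 80. A larger pseudocount gives smaller log2 changes to low regions, and its part in these counts was not tested. Leaving out 1 library gave 58 to 87, 156 to 176, 121 to 149, 50 to 86 (50 without KO nB library 1), 126 to 171 and 111 to 148. In KO BMPC against C BMPC the count of 1 became 3 with a pseudocount of 5, 2 with 0.1, 0 with TMM scaling, 0 with quantile normalization, 2 with the compared groups only, 5 at an adjusted p of 0.05, 9 and 12 with edgeR quasi-likelihood and likelihood ratio, 6 with DESeq2 and 0 to 4 without 1 library. In KO GCB against C GCB the count of 0 became 1 at an adjusted p of 0.05 and 0 to 1 without 1 library (1 without C GCB M1 or KO GCB F1), and in KO nB against C nB it was 0 to 0. For the difference of the genotype effect, leaving out 1 library gave 0 to 0 in each pair of cell types, edgeR quasi-likelihood and likelihood ratio 1 each for BMPC less nB and for BMPC less GCB, and DESeq2 1 for BMPC less GCB. The cause of these shifts was not tested. The B4galt5 call was lost with TMM scaling (limma adjusted p = 0.0103), quantile normalization (0.0723), the compared groups only (0.0194) and a pseudocount of 5 (0.016), and its adjusted p was 0.000143 with edgeR quasi-likelihood and 0.000232 with DESeq2.

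Quantile normalization moved the median log2 fold change of all regions from 0.05 to -0.06 in C GCB against C nB and from 0.12 to -0.07 in KO GCB against KO nB, where the split of calls moved with it. No called value changed sign, and 4141 of 4215 values of named regions under the alternatives stayed on their side of the threshold, with 39 losing and 35 gaining the call. Libraries with the same replicate name in C GCB and KO GCB (F2 and M1) had correlations of deviations of 0.036 and 0.064. The 2 C GCB libraries have mirrored deviations from their mean, so this check cannot decide whether the names pair the libraries. With the replicate block 0 regions were called, as without it. Depth limits GCB most, where 3 reads are worth up to 3.30 RPPM.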
